A study of Mus musculus with 10 samples.

Results

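The basement membrane and matrix genes are 10 genes of secreted matrix proteins and their helpers, namely Col1a1, Col1a2, Col3a1, Col4a1, Col4a2, Lamb1, Lamc1, Fn1, Sparc and Serpinh1. They were chosen by name, through the GENCODE M21 symbol of each listed transcript, and the rule uses no measured value, although earlier results of these data were known when the genes were picked. All 10 were found, each with 1 transcript, among 14534 coding transcripts. The data are ribosome profiling libraries of CGR8, a line of mouse embryonic stem cells grown without feeder cells, in which the RNA fragments that ribosomes shield from RNAse are sequenced as footprints. Cells without inhibitor served as control, with the DMSO content kept equal throughout, and treated cells received DMDA-PatA (1 µM, 10 min), harringtonine (2 µg/ml, 10 min) or puromycin (0.2 mg/ml, 20 min), each in 2 libraries. RNA of control cells was also sequenced as whole transcriptome, again in 2 libraries. The methods of the study call the 2 libraries of a condition biological replicates, while the labels do not say how the cultures were separated, and the p-values measure the spread between these libraries.

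Fibrillar collagens, type IV collagen, laminins and fibronectin are secreted through the endoplasmic reticulum and assemble outside the cell into fibrils or into the basement membrane, the sheet on which epithelia rest. In the early mouse embryo, basement membrane is laid down by cells next to the pluripotent epiblast. Most of these proteins are long, and their mRNAs therefore carry long open reading frames (ORFs). Type I and type III collagen mRNAs are also known for a conserved stem-loop around the start codon that is bound by LARP6, and for short upstream ORFs (uORFs) in the 5' UTR. DMDA-PatA is an analog of pateamine A and targets eIF4A, the helicase of the cap-binding complex. Harringtonine blocks the first rounds of elongation and puromycin terminates the growing chain.

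The sequences around the start codons of Col1a1 and Col1a2, the chains of type I collagen, are shown first, since both hold the same arrangement while the control 5' UTR footprints of Col1a2 stand apart from those of most other matrix genes. Capitals mark, in this order, a uORF from its ATG through its stop codon and the ATG of the main ORF.
Col1a1, chr11:94936348-94936377: ctacATGTCTAGGGTCTAGacATGttcagc
Col1a2, chr6:4505819-4505848: ctgcATGTCTAAGTGGTAGacATGctcagc
Both windows are 5' to 3' on the plus strand of GRCm38, from the exons of the listed transcripts. Each holds a uORF of 4 codons and a stop codon that ends 2 nucleotides before the main start codon. The Col1a1 window matched the Col1a2 window at 24 of 30 positions. A uORF of 4 codons that ends 2 nucleotides before the start codon was found in 5 of 11201 coding transcripts whose 5' UTR could be read (0.0446%), namely Col1a1, Col1a2, Col3a1, Col5a2, a further fibrillar collagen, and Tmem50b. Any upstream ATG was found in 51.2% of them. Col3a1 holds 4 upstream ATGs, Col1a2 holds 3 and Col1a1 holds 2, and all of their uORFs end before the main start codon.
Col4a2 and Lamb1 hold 1 upstream ATG each, and Col4a1, Lamc1, Fn1, Sparc and Serpinh1 hold none in the 5' UTR of the listed transcript. For Fn1 and Serpinh1 the length of the 5' UTR in the deposited tables (189 and 392 nucleotides) differs from that in GENCODE M21 (193 and 276), so that their reads were counted over other windows than those searched here. The deposited tables count reads over the whole 5' UTR, and reads on single uORFs were not analysed here.

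In GRCm38 the listed transcripts of the type I chains lie at chr11:94936224-94953042 (Col1a1) and chr6:4505493-4541544 (Col1a2), both on the plus strand, and Col3a1 lies at chr1:45311538-45349706 on the same strand. Col4a1 lies at chr8:11198423-11312826 on the minus strand, next to Col4a2 at chr8:11312805-11449287 on the plus strand. Lamb1 lies at chr12:31265234-31329493 on the plus strand, and Lamc1 (chr1:153218922-153332786), Fn1 (chr1:71585524-71653175), Sparc (chr11:55394500-55420080) and Serpinh1 (chr7:99345376-99353114) lie on the minus strand. The ORFs had a median length of 4607 nucleotides, against 1446 in 8461 coding transcripts with at least 100 normalized reads in both transcriptome and control footprints. The 5' UTRs had a median of 237 nucleotides, against 159.

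The reads on coding transcripts ranged from 1027314 to 2802597 in the drug libraries and from 9559519 to 11161453 in the controls, and the transcriptome libraries had 25508180 and 59271162. The 10 matrix genes took 1.00 to 1.08% of the ORF footprints in control cells, 0.543 to 0.846% with the drugs and 2.57 to 2.68% of the ORF reads of the transcriptome. The 10 embryonic stem cell markers summed to 33674 to 38226 normalized transcriptome reads, led by Zfp42 and Pou5f1, and the 10 markers of fibroblasts and mesenchyme summed to 69882 to 70390, led by Acta2 and Tagln. Of the latter list, Prrx1, Twist1, Lum, Dcn and Thy1 stayed at or below 143 reads in each transcriptome library, while Postn reached 13705 and 14980 and Pdgfrb 3104 and 3254. The markers of primitive and parietal endoderm summed to 5403 to 5732, led by Plat and Fst, with Gata6 at 112.5 and 68.1, Gata4 at 72.4 and 68.8 and Sox17 at 3.08 and 8.44. The part of other cell types in the levels of the matrix genes was not tested.

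In untreated cells the matrix genes were rich in RNA, and those other than Sparc, Lamc1 and Serpinh1 carried few ribosomes for it. Translation efficiency, the ratio of ORF footprints to ORF transcriptome reads relative to the bulk of coding transcripts, was lower in 9 of the 10 genes and higher in none, against 36.5% lower and 34.2% higher of the 13717 coding transcripts tested (edgeR, adjusted p under 0.05). The median log2 ratio was -1.44 in the matrix genes and -0.04 in all coding transcripts. Col3a1 was the lowest, with 10159 and 10171 normalized transcriptome reads on its ORF and 908 and 563 footprints in the control libraries. Its log2 ratio was -2.36 ± 0.14 (SE, adjusted p = 1.51e-09).

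The collagens came next. The log2 ratio was -1.87 ± 0.11 for Col1a2 (adjusted p = 1.93e-09) and -1.72 ± 0.10 for Col1a1 (1.85e-09), the chains of type I collagen. For Col4a1 and Col4a2, the chains of type IV collagen of the basement membrane, it was -1.65 ± 0.09 (1.01e-09) and -1.56 ± 0.14 (1.14e-07). Fn1, fibronectin, had -1.33 ± 0.09 (1.02e-08) and Lamb1, a laminin beta chain, had -0.98 ± 0.10 (2.91e-07). The values were nearer to the bulk for Serpinh1 (-0.37 ± 0.09, 0.00233), the collagen chaperone Hsp47 of the endoplasmic reticulum, and for Lamc1 (-0.25 ± 0.09, 0.0238), a laminin gamma chain. Sparc, a collagen-binding glycoprotein, did not pass the test (-0.11 ± 0.10, adjusted p = 0.323). The call of Lamc1 was lost without control replicate 1 (adjusted p = 0.0870) and without control replicate 2 (0.0874), and Sparc passed without transcriptome replicate 1 (0.0260).

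The TE-score scales footprints and transcriptome reads to equal sums, and gave the same order at its lower end. Its median over 10768 coding transcripts with at least 100 normalized transcriptome reads was 0.879. Col3a1 had a TE-score of 0.179 ± 0.051 (SD, n = 2), at percentile 2.85 of these transcripts. Each SD and each overlap of the TE-scores is that of 2 ratios from libraries matched by number. The labels give no shared source for this matching, so these spreads depend on it. Col1a2 had 0.249 ± 0.041, Col1a1 0.275 ± 0.044, Col4a1 0.287 ± 0.00046 and Col4a2 0.310 ± 0.091, and each of these overlapped its neighbour in this order. Fn1 was at 0.362 ± 0.024, overlapping Col4a2, and Lamb1 at 0.458 ± 0.031. Serpinh1 (0.701 ± 0.0033), Lamc1 (0.762 ± 0.0047) and Sparc (0.839 ± 0.142) were closest to the median.

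**Figure D1:**
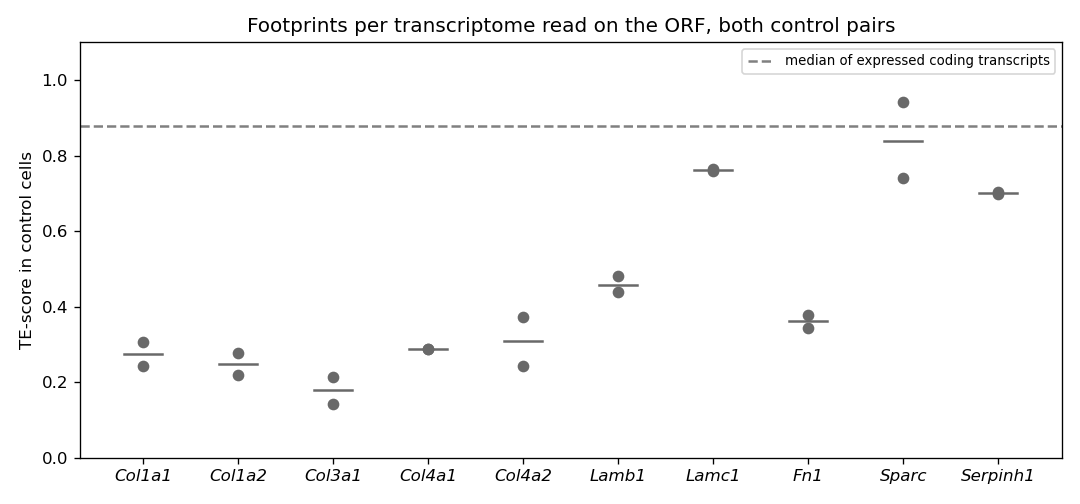
TE-score in control cells (vertical axis, ratio of scaled ORF footprints to scaled ORF transcriptome reads, no unit) for each matrix gene. Points are the 2 ratios of control to transcriptome libraries matched by number, for which the labels give no shared source. The short line is the score from the means of the libraries and the dashed line the median of expressed coding transcripts (0.879). The short lines of the 5 collagen genes lie between 0.179 and 0.310, while those of Sparc, Lamc1 and Serpinh1 lie between 0.701 and 0.839.

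Compared per kilobase of ORF, the order of the genes changed between RNA and footprints. In the transcriptome Fn1 was highest with 42730 ± 613 normalized reads per kb (SD, n = 2), followed by Sparc (34703 ± 2373), Col1a1 (30848 ± 701) and Serpinh1 (19304 ± 65). Lamb1 (8314 ± 456), Lamc1 (7722 ± 142) and Col1a2 (6870 ± 170) formed the middle, and Col4a1 (3784 ± 63), Col4a2 (2777 ± 20) and Col3a1 (2314 ± 1.9) the lower end, with no overlap between neighbours. In control footprints per kb Sparc led with 11767 ± 1764, ahead of Fn1 (6247 ± 819), Serpinh1 (5470 ± 281) and Col1a1 (3428 ± 638). Lamc1 (2378 ± 177) stood above Lamb1 (1541 ± 96), and Col1a2 (692 ± 165), Col4a1 (439 ± 29), Col4a2 (348 ± 121) and Col3a1 (167 ± 56) followed. The libraries of Fn1 and Serpinh1 overlapped, as did those of Col4a1 and Col4a2.

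The next comparison asked how far each drug cleared footprints from the coding sequences. With spike-in normalized footprints all 10 matrix genes fell with each of the 3 drugs, and no drug library reached a control library of the same gene, while on a scale that sets the bulk of ORFs equal 3 of them (DMDA-PatA), 3 (harringtonine) and 6 (puromycin) had values above 0. Nearly all listed ORFs moved in this direction, of which 99.3% (DMDA-PatA), 92.9% (harringtonine) and 90.1% (puromycin) fell, and 0.0560, 0.512 and 0.352% rose. The median log2 change of the matrix genes was -4.69, -3.60 and -2.40 for these drugs in turn, where all 12499 ORFs tested had medians of -4.32, -2.97 and -2.48. The largest adjusted p of the 10 genes was 5.50e-15, 8.82e-07 and 0.000151 in the same order (edgeR).

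Col1a1 had 16909 and 12975 normalized ORF footprints in control cells, then 442 and 752 (DMDA-PatA), 2141 and 1245 (harringtonine) and 3685 and 3863 (puromycin). Col1a2 had 3326 and 2368 in control cells, then 84.6 and 108 (DMDA-PatA), 769 and 371 (harringtonine) and 831 and 839 (puromycin). In both chains of type I collagen DMDA-PatA was lowest and puromycin left the most. The fold inhibition, the ratio of the means, was 25.0, 8.83 and 3.96 for Col1a1 and 29.6, 4.99 and 3.41 for Col1a2 with DMDA-PatA, harringtonine and puromycin. Col3a1 had 908 and 563 in control cells, then 40.4 and 65.7 (DMDA-PatA), 77.1 and 53.2 (harringtonine) and 120 and 167 (puromycin). The DMDA-PatA and harringtonine libraries of Col3a1 overlapped. Its fold inhibition of 13.9 with DMDA-PatA was the smallest of the 10 genes (log2 change -3.80 ± 0.48, SE, adjusted p = 3.28e-15). Libraries of Col3a1 matched by number gave 22.5 and 8.56 fold, although the labels give no shared source for them.

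Of the type IV collagens, Col4a1 had 2300 and 2098 normalized ORF footprints in control cells, then 106 and 191 (DMDA-PatA), 214 and 127 (harringtonine) and 587 and 594 (puromycin). Col4a2 had 2221 and 1342 in control cells, then 43.6 and 41.4 (DMDA-PatA), 97.4 and 56.7 (harringtonine) and 358 and 502 (puromycin). The chains are transcribed head to head, and the listed transcripts overlap by 22 nucleotides at their 5' ends on opposite strands. DMDA-PatA lowered Col4a2 by 41.9 fold and Col4a1 by 14.8 fold, although both carry about the same number of control footprints. With puromycin they were close, at 4.14 and 3.72 fold.

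Lamc1 had the largest fold inhibition of the 10 genes under every drug. It had 12068 and 10861 normalized ORF footprints in control cells, then 124 and 170 (DMDA-PatA), 233 and 133 (harringtonine) and 165 and 165 (puromycin), and the libraries of the 3 drugs overlapped. This left 1.29, 1.60 and 1.44% of the control level. The log2 changes were -6.28 ± 0.57 (SE, adjusted p = 1.07e-26), -5.97 ± 0.56 (5.58e-24) and -6.11 ± 0.57 (5.29e-24). Lamb1, its partner in laminin trimers, had 8620 and 7892 in control cells, then 192 and 268 (DMDA-PatA), 500 and 414 (harringtonine) and 536 and 383 (puromycin). Its inhibition of 35.9, 18.1 and 18.0 fold was smaller than that of Lamc1 under every drug.

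Fn1, the longest ORF of the group with 7431 nucleotides, had 50721 and 42116 normalized ORF footprints in control cells, then 1299 and 2196 (DMDA-PatA), 2804 and 1649 (harringtonine) and 4121 and 4290 (puromycin). Sparc, the shortest with 906 nucleotides, had 11791 and 9531 in control cells, then 400 and 840 (DMDA-PatA), 2896 and 1131 (harringtonine) and 1812 and 1435 (puromycin). Serpinh1 had 7091 and 6595 in control cells, then 226 and 506 (DMDA-PatA), 1490 and 1177 (harringtonine) and 1189 and 1331 (puromycin). In Sparc and Serpinh1 the harringtonine and puromycin libraries overlapped, and both DMDA-PatA libraries lay below them. Fold inhibition with DMDA-PatA, harringtonine and puromycin was 26.6, 20.8 and 11.0 for Fn1, 17.2, 5.30 and 6.57 for Sparc and 18.7, 5.13 and 5.43 for Serpinh1.

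**Figure D2:**
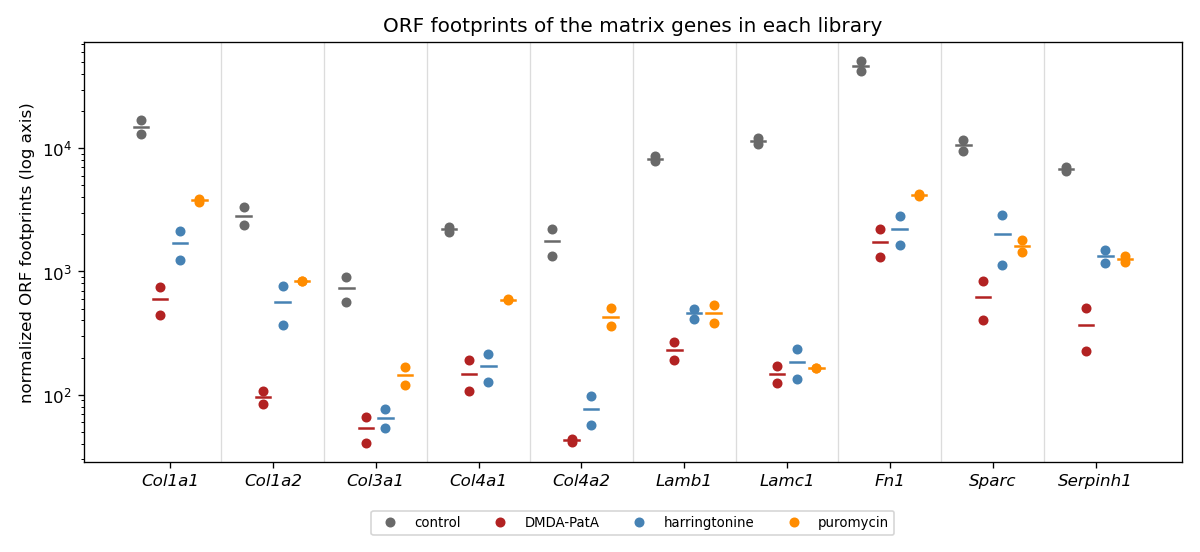
Normalized ORF footprints (log axis, reads divided by the spike-in size factor) of each matrix gene. Each point is 1 library and each short line the mean of 2 libraries, for the control and each drug. All drug libraries lie below both control libraries of the gene, and for Lamc1 the 3 drugs lie between 124 and 233.

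The collagens were inhibited less with puromycin than the median ORF of their length. Among the same 8461 coding transcripts, those with an ORF within 1.25 fold of the length of each collagen had median inhibitions with puromycin of 11.5 to 12.1 fold. The 5 collagens were inhibited by 3.41 to 5.13 fold, at percentiles 2.30 to 8.96 of these ORFs. With harringtonine Col4a2 lay above this median (23.1 against 15.4 fold) and the other collagens below it. With DMDA-PatA Col1a2 and Col4a2 lay above it and Col1a1, Col3a1 and Col4a1 below it. With puromycin Lamb1 (18.0 fold) and Lamc1 (69.3 fold) lay above the median of ORFs of their length, at 12.1 and 12.2 fold. Fn1 (11.0 fold) lay below it, at 14.7. Sparc (6.57 fold) lay above its median of 4.93 and Serpinh1 (5.43 fold) below its median of 5.96. These are descriptions and were not tested.

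To ask whether a gene moved more or less than the bulk, ORF footprints were also compared on a scale that sets the bulk of coding transcripts equal between libraries (TMM factors). With DMDA-PatA 5 of the 10 genes lay below the bulk, against 23.5% of 12298 coding transcripts, and none above it, against 18.6%. The log2 differences were -2.03 ± 0.18 for Lamc1 (SE, adjusted p = 5.53e-08), -1.08 ± 0.25 for Col4a2 (0.00135), -0.92 ± 0.21 for Lamb1 (0.00121), -0.62 ± 0.20 for Col1a2 (0.0146) and -0.51 ± 0.19 for Fn1 (0.0329). Lamc1 and Lamb1 passed without any one library. The call of Col4a2 was lost without DMDA-PatA replicate 2 (adjusted p = 0.0781), that of Col1a2 without DMDA-PatA replicate 2 (0.152) or control replicate 1 (0.193), and that of Fn1 without any one of the control and DMDA-PatA libraries (0.0740 to 0.193). Col3a1 had a value of 0.45 ± 0.22 (adjusted p = 0.115) and passed without control replicate 1 (0.75, 0.0410).

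With harringtonine 6 genes lay below the bulk, against 29.9%, and 2 above it, against 26.3%. Lamc1 (-3.11 ± 0.19), Col4a2 (-1.66 ± 0.24), Fn1 (-1.52 ± 0.19), Lamb1 (-1.25 ± 0.21) and Col4a1 (-0.82 ± 0.18) were lower with adjusted p between 8.23e-11 and 0.000473. Col3a1 was lower by a smaller margin (-0.59 ± 0.22, adjusted p = 0.0268), and was not called without control replicate 1 (0.321) or harringtonine replicate 1 (0.220). Serpinh1 (0.56 ± 0.21, adjusted p = 0.0263) and Col1a2 (0.51 ± 0.18, 0.0220) were higher. Serpinh1 was not called without either control library (0.148 and 0.111) or harringtonine replicate 2 (0.179), and Col1a2 not without control replicate 2 (0.306) or harringtonine replicate 1 (0.0930). Sparc was not called (0.39 ± 0.22, adjusted p = 0.142) but passed without harringtonine replicate 2 (0.0151).

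With puromycin 3 genes lay below the bulk, against 24.9%, and 3 above it, against 24.1%. The lower genes were Lamc1 (-3.65 ± 0.20, adjusted p = 1.08e-10), Lamb1 (-1.71 ± 0.21, 1.30e-06) and Fn1 (-0.99 ± 0.19, 0.000171), the 3 that encode laminin chains and fibronectin. The higher genes were the collagens Col1a2 (0.71 ± 0.19, 0.00325), Col4a1 (0.57 ± 0.17, 0.00940) and Col1a1 (0.49 ± 0.18, 0.0331). Without control replicate 2 none of these collagens was called (0.0912, 0.0700 and 0.266), and without control replicate 1 Col4a1 (0.0801) and Col1a1 (0.0712) were not. Col1a1 also lost its call without puromycin replicate 2 (0.0828). Col4a2 (0.44 ± 0.22, adjusted p = 0.0994) passed without control replicate 1 (0.0325), without puromycin replicate 1 (0.0251) and without either harringtonine library (0.0416 and 0.0422).

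The drugs were also compared with each other, and they differ in agent and in time (20 min for puromycin rather than 10). The spike-in scale put 4 of the 10 genes lower with DMDA-PatA than with harringtonine, where 52.8% of all ORFs were lower and 0.432% higher. With the bulk set equal by TMM factors 2 were lower and 4 higher, where 2248 of 12499 ORFs were lower and 1971 higher. The 4 genes lower on the spike-in scale were Col1a2 (log2 difference -2.56 ± 0.47, SE, adjusted p = 8.46e-07), Serpinh1 (-1.87 ± 0.47, 0.000287), Sparc (-1.70 ± 0.47, 0.00102) and Col1a1 (-1.50 ± 0.47, 0.00391). Without DMDA-PatA replicate 1, Sparc (0.0688) and Col1a1 (0.0951) were not called, and Sparc not without harringtonine replicate 1 (0.0769). DMDA-PatA left less than puromycin on 9 of the 10 genes, against 67.4% of all ORFs, with 0.432% higher. With the bulk set equal 3 were lower and 2 higher, where 2393 of 12499 ORFs were lower and 2219 higher. Col4a2 differed the most (-3.34 ± 0.49, 2.02e-10), and Lamc1 was not called (-0.17 ± 0.47, 0.756). Of these 9, Col1a1, Col1a2, Col4a1, Col4a2 and Serpinh1 passed without any one library, while Col3a1 was lost without DMDA-PatA replicate 1 (0.0699) or puromycin replicate 2 (0.0982), Fn1 without DMDA-PatA replicate 1 (0.157) or either puromycin library (0.0658 and 0.0877), Sparc without DMDA-PatA replicate 1 (0.138) or puromycin replicate 1 (0.0807), and Lamb1 (adjusted p = 0.0458) without DMDA-PatA replicate 1 (0.225) or any one of the control (0.0902 and 0.0900) and puromycin (0.301 and 0.0879) libraries. Harringtonine left less than puromycin on Col4a2 (-2.49 ± 0.47, 2.44e-05) and Col4a1 (-1.79 ± 0.46, 0.00289), the 2 type IV collagens, against 9.94% of all ORFs, with 1.20% higher. With the bulk set equal 5 genes were lower and 1 higher, where 1581 of 12499 ORFs were lower and 1652 higher. The call of Col4a1 was lost without puromycin replicate 1 (0.0645) or 2 (0.0852).

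The 5' UTR footprints moved in both directions, unlike those of the ORFs. With DMDA-PatA 4 of the 10 genes rose, against 14.7% of 6647 5' UTRs tested, and 2 fell, against 29.0%. With the bulk of 5' UTRs set equal by TMM factors 6 rose and 2 fell, a count not set beside all 5' UTRs on that scale. Sparc had 73.1 and 112 normalized 5' UTR footprints in control cells, then 320 and 570 (DMDA-PatA), 170 and 146 (harringtonine) and 93.1 and 69.6 (puromycin). Its log2 rise of 2.26 ± 0.47 with DMDA-PatA (SE, adjusted p = 1.49e-05) was the largest of the group, while its ORF footprints fell by 17.2 fold in the same libraries.

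Col1a1 had 233 and 318 normalized 5' UTR footprints in control cells and 478 and 916 with DMDA-PatA (log2 change 1.33 ± 0.44, SE, adjusted p = 0.00845). Col4a1 had 17.7 and 45.3 in control cells and 62.5 and 101 with DMDA-PatA (1.35 ± 0.49, 0.0178), from 15 and 50 reads in the control libraries. Reads on the 22 nucleotides that the 5' UTRs of Col4a1 and Col4a2 share could not be assigned to a chain unless the counting used strand. Serpinh1 had 179 and 187 in control cells and 248 and 589 with DMDA-PatA (1.19 ± 0.45, 0.0204). In each of these 3 genes both DMDA-PatA libraries lay above both controls, with replicate 2 the higher. The calls of all 3 were lost without DMDA-PatA replicate 2 (adjusted p = 0.147, 0.128 and 0.456) and without control replicate 1 (0.167, 0.340 and 0.156), and those of Col1a1 (0.0508) and Serpinh1 (0.134) without control replicate 2.

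Col3a1 went the other way. It had 464 and 363 normalized 5' UTR footprints in control cells, then 86.5 and 80.4 (DMDA-PatA), 314 and 84.7 (harringtonine) and 308 and 220 (puromycin), and every drug library was below both controls. With DMDA-PatA it fell by 2.31 ± 0.46 on the log2 scale (SE, adjusted p = 8.71e-06), a loss that put it at percentile 11.3 of all 5' UTRs tested. Lamc1 had 284 and 230 in control cells and 78.9 and 124 with DMDA-PatA (log2 change -1.34 ± 0.45, 0.00986), and was not called without control replicate 1 (0.116) or DMDA-PatA replicate 1 (0.0898). Sparc and Col3a1 passed without any one library.

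Col1a2, the other chain of type I collagen, was not called in its 5' UTR with any drug. It had 1323 and 800 in control cells, then 1014 and 1417 (DMDA-PatA), 871 and 505 (harringtonine) and 815 and 875 (puromycin), and the DMDA-PatA libraries overlapped the controls (log2 change 0.20 ± 0.43, SE, adjusted p = 0.739). Fn1 had 1076 and 1114 in control cells, then 1051 and 1834 (DMDA-PatA), 2202 and 1263 (harringtonine) and 974 and 806 (puromycin). Col4a2 (105 and 85.2 in the controls, 66.3 and 78.7 with DMDA-PatA) and Lamb1 (35.4 and 53.5 in the controls, 27.8 and 24.4 with DMDA-PatA) were not called. The log2 changes with DMDA-PatA were 0.40 ± 0.43 for Fn1 (adjusted p = 0.471), -0.39 ± 0.47 for Col4a2 (0.521) and -0.77 ± 0.52 for Lamb1 (0.226).

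With harringtonine 2 genes rose in the 5' UTR, against 35.1% of all 5' UTRs, and 1 fell, against 5.21%. With the bulk of 5' UTRs set equal 0 rose and 4 fell, where 1411 of 6647 5' UTRs rose and 1242 fell. Serpinh1 had 442 and 378 normalized 5' UTR footprints (log2 change 1.16 ± 0.45, SE, adjusted p = 0.0262) and Col4a1 had 76.1 and 70.7 (1.19 ± 0.50, 0.0422), all above the controls. Col3a1 fell by 1.06 ± 0.45 (0.0443). Without control replicate 1 none of the 3 passed (adjusted p = 0.175 for Serpinh1, 0.447 for Col4a1 and 0.266 for Col3a1). Serpinh1 was also lost without control replicate 2 (0.168) or harringtonine replicate 1 (0.0969), Col4a1 without either harringtonine library (0.108 and 0.0614) or either puromycin library (0.0651 and 0.0650), and Col3a1 without control replicate 2 (0.113), harringtonine replicate 2 (0.558) or either puromycin library (0.0750 and 0.0741). With puromycin 0 of 10 genes passed by edgeR, DESeq2 or limma, against 0.557% of 5' UTRs higher and 0.406% lower, and 2 had an unadjusted p under 0.05.

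**Figure D3:**
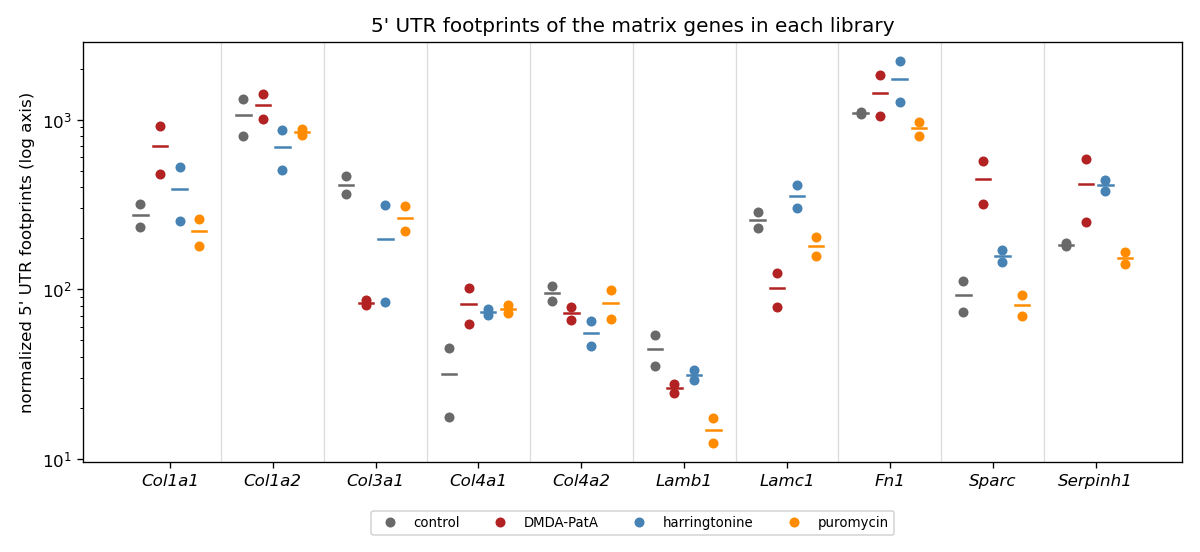
Normalized 5' UTR footprints (log axis, reads divided by the spike-in size factor) of each matrix gene. Each point is 1 library and each short line the mean of 2 libraries. The DMDA-PatA libraries of Sparc (320 and 570) lie above its controls and those of Col3a1 (86.5 and 80.4) lie below.

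The share of 5' UTR footprints, that is 5' UTR reads as a percentage of 5' UTR and ORF reads of a library, does not use the spike-in level. In control cells Col3a1 had shares of 33.8 and 39.2% (95% Wilson intervals 31.2 to 36.6 and 36.2 to 42.2%) and Col1a2 had 28.5 and 25.2% (27.1 to 29.9 and 23.8 to 26.7%). These intervals cover counting error only. The other 8 genes lay between 0.409 and 5.97%, where the median of 8300 coding transcripts was 1.39%. Col1a1, whose start codon has the same uORF arrangement, had only 1.36 and 2.39%. In the transcriptome the share of Col3a1 was 2.12 and 2.16% and that of Col1a2 6.10 and 5.91%, so that the high shares were in footprints and not in the RNA. Per nucleotide, the 5' UTR of Col3a1 held 12.1 times and that of Col1a2 4.36 times the footprints of the ORF in control cells, as means of the 2 libraries, and this mean was below 1 in the other 8 genes. These values average over the whole 5' UTR. For Col3a1 the study reports its main footprint peak on the ATG of a short uORF.

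With each drug the share rose in both libraries of all 10 genes. Most coding transcripts moved this way, since the test of the 5' UTR to ORF ratio given below rose in 93.6% (DMDA-PatA), 95.4% (harringtonine) and 78.3% (puromycin) of 6497. With DMDA-PatA it reached 92.3 and 92.9% in Col1a2, 60.3 and 65.5% in Col4a2, 68.2 and 55.0% in Col3a1, 52.0 and 54.9% in Col1a1, 52.3 and 53.8% in Serpinh1, 44.7 and 45.5% in Fn1 and 44.4 and 40.4% in Sparc. Lamc1 had 38.8 and 42.2%, Col4a1 37.1 and 34.7% and Lamb1 12.6 and 8.33%, against a median of 27.5% over 8298 coding transcripts. Lamb1 was the only gene of the 10 below that median. With harringtonine Lamc1 had 63.8 and 69.3%, and with puromycin 55.1 and 48.6%, where the medians were 23.4 and 9.32%. Lamc1 thus had a higher share with harringtonine than with DMDA-PatA in both libraries. The reverse order, which is also that of the medians, held in Col1a1, Col1a2, Col4a2, Lamb1, Fn1, Sparc and Serpinh1. The libraries of these drugs overlapped in Col3a1 and Col4a1. Sparc had 5.56 and 11.4% after harringtonine and 4.89 and 4.63% after puromycin, and Col1a1 had 19.6 and 16.9% and 6.60 and 4.46%.

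**Figure D4:**
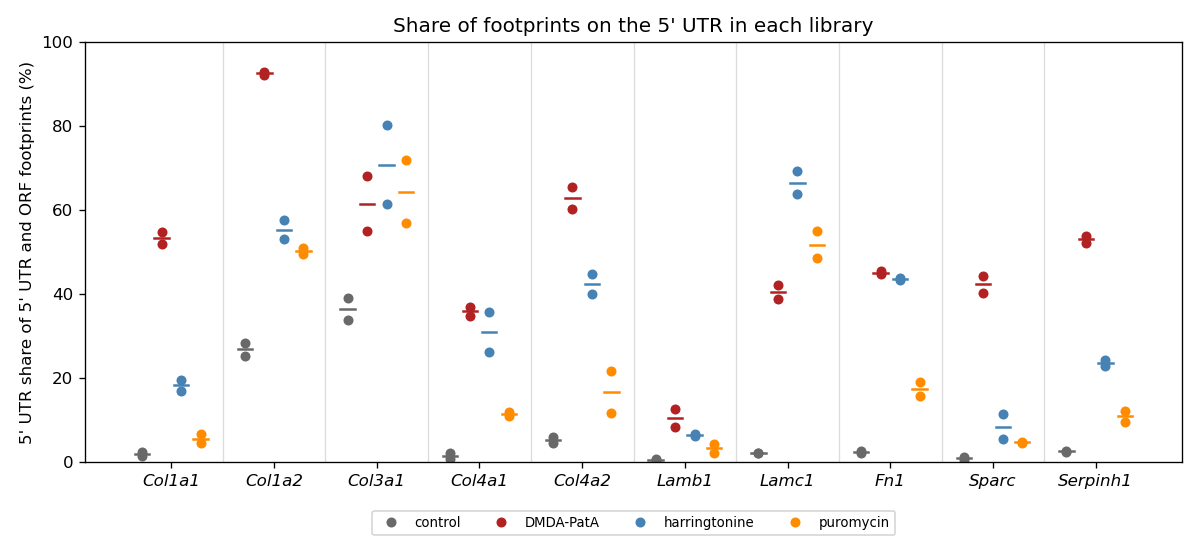
Reads on the 5' UTR as a percentage of 5' UTR and ORF reads (vertical axis, %) of each matrix gene. Each point is 1 library and each short line the mean of 2 libraries. Col3a1 and Col1a2 have control shares of 25.2 to 39.2%, the other genes of at most 5.97%, and Col1a2 reaches 92.3 and 92.9% with DMDA-PatA.

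Tested within libraries, the ratio of 5' UTR to ORF footprints rose in 10 of 10 genes with each drug, against 93.6% (DMDA-PatA), 95.4% (harringtonine) and 78.3% (puromycin) of 6497 coding transcripts, while 0.139, 0.123 and 0.0616% fell. The median log2 rise of the matrix genes was 5.11, 3.63 and 2.34, and that of all transcripts tested was 4.36, 4.00 and 2.55. With DMDA-PatA the rise was 6.39 ± 0.42 for Sparc (SE, adjusted p = 4.65e-11), 5.95 ± 0.39 for Col1a1 (4.85e-11) and 4.42 to 5.40 for 7 other genes. Col3a1 rose by 1.49 ± 0.49 (0.00767), at percentile 5.8 of all transcripts tested, and its call was lost without DMDA-PatA replicate 1 (1.09, adjusted p = 0.0877). Its rises with harringtonine (2.16 ± 0.49, 0.000362) and puromycin (1.66 ± 0.49, 0.00490) were of similar size, and the latter was not called without puromycin replicate 1 (1.20, 0.0692).

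Col1a2 combined a large rise with DMDA-PatA (5.09 ± 0.30, SE, adjusted p = 1.19e-11) with small ones for harringtonine (1.76 ± 0.28, 6.94e-06) and puromycin (1.46 ± 0.28, 0.000138). Lamc1 rose most with harringtonine, with 6.48 ± 0.34 (3.89e-12), against 5.58 ± 0.35 (1.45e-09) with puromycin and 4.93 ± 0.34 (8.25e-11) with DMDA-PatA. Its rise stood at percentile 92.0 of all transcripts with harringtonine and 97.8 with puromycin. The 3 contrasts share the control libraries, and the differences between drugs in this ratio were not tested.

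**Figure D5:**
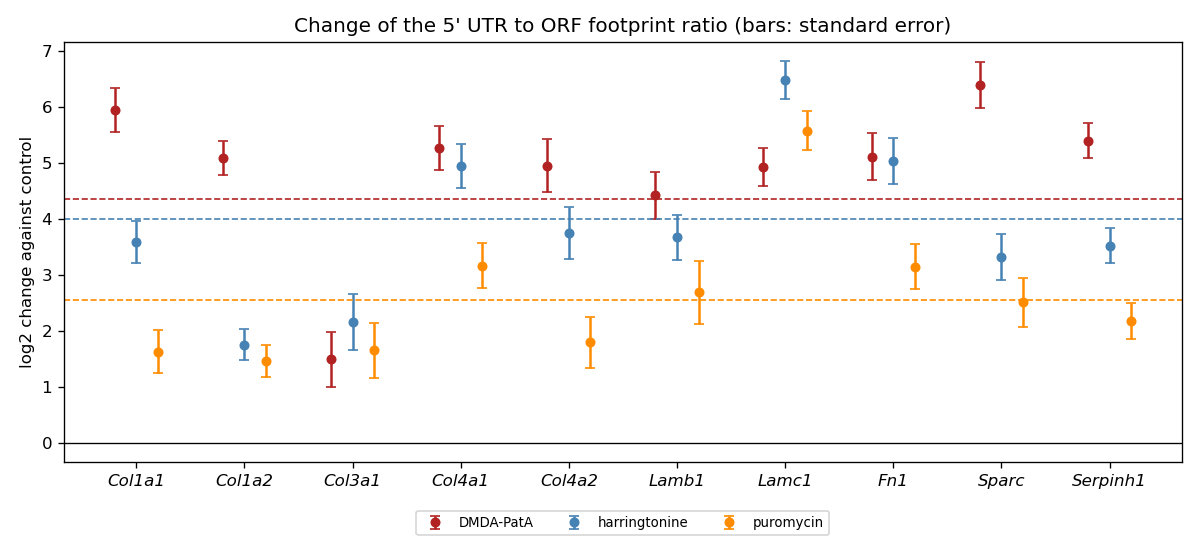
Log2 change of the 5' UTR to ORF footprint ratio against control (vertical axis) for each matrix gene and drug, with standard errors from the edgeR fit. Dashed lines are the medians of all transcripts tested, at 4.36 (DMDA-PatA), 4.00 (harringtonine) and 2.55 (puromycin). Col3a1 is lowest with DMDA-PatA (1.49) and Lamc1 highest with harringtonine (6.48) and puromycin (5.58).

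The transcripts most like Col3a1 in the 5' UTR share were Spata2, Tmem198b and Snx11, by the distance of the log2 odds of the mean share over the 4 conditions among 1871 coding transcripts with at least 100 control 5' UTR reads. Their distances were 0.267, 0.329 and 0.353. Spata2 had mean shares of 36.7% in control cells, 58.8% after DMDA-PatA, 73.1% after harringtonine and 66.6% after puromycin. Col3a1 had 36.5, 61.6, 70.8 and 64.4% in the same order. The likeness follows from the choice by distance over these same 4 conditions, and rests on 2 libraries in each.

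Col5a2 and Tmem50b, which also hold a uORF of 4 codons just before the start codon, were lower than Col3a1 and Col1a2 in the control share and higher than the other 8 matrix genes. The shares, from few reads, were 8.05 and 14.3% for Col5a2 and 7.58 and 14.9% for Tmem50b. With DMDA-PatA they reached 87.5 and 71.4% and 88.1 and 82.1%. Normalized 5' UTR footprints of Col5a2 were 8.25 and 10.9 in control cells and 8.84 and 16.2 with DMDA-PatA (log2 change 0.36 ± 0.68, SE, adjusted p = 0.699), and those of Tmem50b were 5.89 and 12.7 and 23.4 and 44.6 (1.81 ± 0.60, 0.00807). The 5 transcripts with this arrangement thus included 1 with a loss, 2 with a rise and 2 without a call in the 5' UTR with DMDA-PatA. Over all 6647 5' UTRs tested 29.0% fell and 14.7% rose. The call of Col1a1 was lost when single libraries were left out, and that of Tmem50b was not examined in this way.

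Further genes of the same pathway were read as lists. Of 42 other basement membrane and matrix genes 40 were listed, and translation efficiency in control cells was lower in 30 and higher in 3 of 39 tested (median log2 ratio -1.04), where 36.5% of all coding transcripts were lower and 34.2% higher (median -0.04). Hspg2, the heparan sulfate proteoglycan perlecan, had -1.70 ± 0.09 (SE, adjusted p = 7.60e-10), Thbs1, thrombospondin, -1.10 ± 0.11 (3.45e-07) and Nid2, the laminin-binding nidogen, -0.56 ± 0.09 (8.51e-05). Of 29 listed genes of collagen folding and modification, all of them tested, 20 were lower and 2 higher (median -0.89). The prolyl hydroxylase subunit and disulfide isomerase P4hb was higher (0.63 ± 0.09, 2.46e-05). Of 22 matrix receptors 17 were lower and 1 higher of 21 tested (median -0.77), with the integrin subunit Itgb1 at -1.03 ± 0.10 (1.99e-07). The 10 stem cell markers showed the opposite, with 9 higher and 0 lower (median 1.07).

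ORF footprints with DMDA-PatA fell in 37 of 37 other matrix genes tested, 28 of 28 of collagen folding and 21 of 21 receptors, where 99.3% of all ORFs fell, with median log2 changes of -4.48, -4.20 and -5.13 beside -4.32 for all ORFs. Relative to the bulk of coding transcripts, 6 of the 37 other matrix genes were lower and 3 higher, and 4 of the 28 genes of collagen folding were lower and 7 higher, where 23.5% of all coding transcripts were lower and 18.6% higher. Of the 21 receptors 11 were lower and 3 higher (median -1.06, beside -0.11 for all). Hspg2 was higher (1.33 ± 0.18, SE, adjusted p = 8.00e-06) and Thbs1 lower (-1.53 ± 0.21, 7.65e-06), and the laminin receptor Dag1, dystroglycan, was lower by a wide margin (-2.40 ± 0.22, 7.30e-08). In the 5' UTR with DMDA-PatA 5 other matrix genes rose and 9 fell of 30 tested, 4 genes of collagen folding rose and 1 fell of 12, and 4 receptors rose and 4 fell of 13. Over all 5' UTRs 14.7% rose and 29.0% fell, and the shares of the other matrix genes were near these. Ppib, a prolyl isomerase that acts on collagen, rose by 4.00 ± 0.61 (2.14e-09), while Dag1 (-3.74 ± 0.50, 5.59e-12) and Itga3 (-3.98 ± 0.49, 7.61e-14), an integrin subunit for laminins, fell. The receptor Itgb1 rose by 1.55 (0.00927). Of the other matrix genes named above Hspg2 (2.41, 0.00282) and Nid2 (1.81, 0.00165) rose and Thbs1 was not called (-0.82, 0.112).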

How the data were processed

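The authors aligned the SOLiD reads in color space to mm10 (GRCm38) with LifeScope, left out reads with multiple matches and counted reads on the ORF and UTRs of each transcript. The deposited values are a signal, namely counts divided by size factors from spike-in reads for footprints and by inter-replicate factors for the transcriptome. Within each library and region 1 read had a fixed value, division by which gave whole reads for 100% of the values (tolerance 0.001), and these reads were tested. Whether counting used strand is not given in the sources used here. Picard 1.38 is named in the submitters' processing notes. Symbols, positions and sequences came from GENCODE M21 (15074 of 15269 transcripts matched) and GRCm38, and 1 sequence is not reported here.

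The tests had been planned for such recovered reads. edgeR 4.0.16 (quasi-likelihood, Benjamini-Hochberg, adjusted p of 0.05) was used in R 4.3.3 on features that reached 10 reads in 2 or more libraries, with the 4 footprint conditions in one fit and no covariate. ORF and 5' UTR footprints used the spike-in offsets, the ratio a region by drug term with the library as block, and the comparisons with the bulk and the transcriptome TMM factors. Standard errors were taken from the quasi-likelihood statistic. DESeq2 1.42.0 and limma 3.58.1 on log2 values with pseudocounts of 0.5 and 1 were alternatives, with no filter, a replicate block, exchanged size factors (DMDA-PatA against harringtonine), the 2 groups alone, and each library left out. The scripts were tested on simulated data. Python 3.11.15 was used elsewhere. The 5' UTR values rest on 6 to 2260 reads per member and footprint library.

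The members and lists were chosen with earlier results of these data known. Named were all 10 genes, the 3 transcripts nearest to Col3a1, the carriers of the uORF arrangement, and from each list genes among the 3 with the most control footprints. Col5a2, Tmem50b and the individual cell type markers were named after their values were seen.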

Additional observations from a re-analysis of the deposited data

Results flagged for a closer look

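Among 30 comparisons of 3' UTR footprints of the 10 matrix genes with 3 drugs, 3 had both drug libraries above both controls. The listed Lamb1 transcript of 5557 nucleotides holds a 5' UTR of 196, an ORF of 5358 and the stop codon, and no 3' UTR. Its 3' UTR count was 0 in every library, also of the transcriptome, so its comparisons could not show this order. Fn1 had a mean of 30.3 normalized 3' UTR footprints with harringtonine (39.57 and 20.999, from 39 and 30 reads) and of 21.9 with puromycin (22.7 and 21.1, from 11 and 17 reads), and 16.5 and 13.6 in control cells. Lamc1 had a mean of 28.6 with harringtonine (37.5 and 19.6, from 37 and 28 reads) and 17.7 and 18.1 in control cells. Among 8461 well-expressed coding transcripts the same order was found in 5.07% (DMDA-PatA), 17.6% (harringtonine) and 9.57% (puromycin), beside 0, 2 and 1 of the 10 matrix genes. These differences were not tested.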

How the results depend on the processing

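The 2 libraries per condition limit every comparison, and the 5' UTR values also rest on few reads. Of the counts of genes called, that of the ORF falls with each drug stayed at 10 under every alternative other than TMM factors, and that of the ratio at 9 or 10. TMM factors, which set the bulk of ORFs equal and move the median of all ORFs from -4.32, -2.97 and -2.48 to -0.12, -0.12 and -0.04, gave 5 calls, all lower, for DMDA-PatA and 6, of which 3 lower, for puromycin against control, 5 in place of 9 for DMDA-PatA against puromycin and 6 in place of 2 for harringtonine against puromycin. They reversed the log2 change with DMDA-PatA for Col3a1 (0.43), Col4a1 (0.30) and Sparc (0.071), with harringtonine for Col1a2 (0.50), Sparc (0.37) and Serpinh1 (0.54), with puromycin for Col1a1 (0.48), Col1a2 (0.69), Col3a1 (0.13), Col4a1 (0.56), Col4a2 (0.43) and Serpinh1 (0.012), and for DMDA-PatA against puromycin in Col3a1 (0.30), Lamb1 (0.78), Fn1 (0.48) and Sparc (0.33). In the 5' UTR they reversed Col4a2 with DMDA-PatA (0.23) and Col1a1 (-0.32), Lamc1 (-0.28) and Fn1 (-0.12) with harringtonine. Over all 12499 ORFs, TMM factors called 2945 lower and 2354 higher with DMDA-PatA against control, and 3112 lower and 3032 higher with puromycin. Exchanging the size factors gave 6 calls for harringtonine against puromycin, where 4694 of all ORFs were lower and 321 higher.

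For harringtonine in the 5' UTR, 3 calls became 1 by DESeq2, 1 without the filter and 1 with the replicate block. Of all 6647 5' UTRs 2333 rose and 346 fell by edgeR, and 1931 rose and 304 fell by DESeq2. Without the filter 2307 rose and 340 fell of 11978, and with the block 2057 rose and 300 fell of 6647. The numbers of the libraries were not taken as pairs, since the labels give no shared source and the correlations of their deviations ran from -0.0514 to 0.252. The block also left 5 of 6 calls in the 5' UTR with DMDA-PatA, without Serpinh1, and 8 of 9 for DMDA-PatA against puromycin, without Lamb1, and apart from these it changed no other call. Relative to the bulk, Serpinh1 with DMDA-PatA was 0.0254 by DESeq2, 0.0256 with its size factors and 0.0720 with total ORF reads, and without the filter Sparc with DMDA-PatA was -0.0112 and Serpinh1 with puromycin -0.0607.

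Leaving out 1 library gave 2 to 6 calls for DMDA-PatA against harringtonine and 5 to 9 against puromycin. Harringtonine against puromycin gave 1 to 6. Of all ORFs (10848 to 12498 tested), 3943 to 8334, 6079 to 9097 and 274 to 3741 were lower in these comparisons. In the same order 19 to 172, 31 to 78 and 25 to 485 were higher. In the 5' UTR 2 to 6 genes were called with DMDA-PatA, not set beside all 5' UTRs, and 0 to 3 with harringtonine. With harringtonine 1140 to 2615 of all 5' UTRs rose and 165 to 419 fell. Relative to the bulk 2 to 5 were called with DMDA-PatA and 3 to 7 with puromycin. Of all coding transcripts 1714 to 2956 were lower and 1273 to 2565 higher with DMDA-PatA. With puromycin 2306 to 3051 were lower and 2170 to 3272 higher. Log2 changes that had not passed the test crossed 0. In the 5' UTR these ran from -0.12 to 0.60 for Col1a2 and from -0.0593 to 0.74 for Fn1 with DMDA-PatA, from -0.13 to 0.92 for Col1a1 with harringtonine, and with puromycin from -0.65 to 0.0802 for Col1a2, -0.50 to 0.0642 for Col4a2 and -0.48 to 0.14 for Sparc. Relative to the bulk they ran from -0.17 to 0.31 for Sparc and -0.36 to 0.21 for Serpinh1 with DMDA-PatA, and from -0.11 to 0.42 for Col3a1 and -0.0395 to 0.16 for Serpinh1 with puromycin. The cause was not tested.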
